A study of Mus musculus with 8 samples.

Results

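Mediator is the large protein assembly that carries signals from DNA-bound transcription factors to RNA polymerase II. Its core has a head, a middle and a tail, joined by the scaffold subunit MED14, and a separable kinase module docks on the core through MED13. In that module cyclin C and MED12 activate the kinase, CDK8 or its paralog CDK19, and a core with the module bound cannot at the same time hold the polymerase. The 33 genes for these subunits were taken by symbol (Cdk8, Cdk19, Ccnc and every symbol of Med followed by a digit) from the 34432 rows of a table of normalized read counts. They comprise 7 kinase module genes, 7 head genes, 9 middle genes, 5 tail genes, Med14, and Med27, Med28, Med29 and Med30, which sit between head and tail, are placed in either by different sources and were kept as a group of 4.

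The cells were macrophages that had been grown from mouse bone marrow precursors and taken untreated on day 7 of differentiation, and their polyadenylated RNA was sequenced. The double knockouts (DKO, 4 libraries) carried Cdk8 flox/flox with the recombinase Vav-iCre and a Cdk19 null allele, and the controls (VavCre, 4 libraries) carried the Vav-driven Cre, so Cre was present in both groups. The Vav promoter is active in blood-forming cells, so the floxed allele was open to recombination before the cultures were started. The labels do not state the kind of Cdk19 null allele, the age of the mice, or whether libraries came from separate animals. The p-values therefore measure the spread between these libraries, which may be technical. The comparison asks which of the complex's own transcripts differ when both of its kinases are targeted.

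The summed normalized counts per library ranged from 20140700 to 20894000 in DKO and from 19363000 to 20074000 in VavCre (to 6 digits). DKO libraries 1 and 2 lay close together and 3 and 4 likewise, with a chi-square per gene of 7.94 and 8.97 within these pairs against 19.6 to 27.2 across them, so the 4 may not be independent. The controls were unevenly spaced too. Their chi-square per gene ran from 9.77 between VavCre libraries 2 and 3 to 38.2 between 1 and 4, the largest distance in either group. All 10 macrophage markers were read, with sums of 206688 to 224356 in DKO and 288713 to 304152 in VavCre (5 higher and 5 lower in DKO). Of the other cell types, the monocyte markers summed to 658 to 757 in DKO and 2735 to 3259 in VavCre (4 of 7 lower), and the neutrophil markers to 457 to 742 in DKO and 1923 to 3401 in VavCre (7 of 8 tested lower). Cd3e, Cd3d, Cd3g, Ncr1 and Gzmb of the T and NK cell list and Hba-a1 and Hbb-bs of the erythroid list were at 0 in all 8 libraries, as was Cd209a of the dendritic cell list. All 12 cell division genes were lower, with sums of 11806 to 12083 in DKO and 40663 to 44049 in VavCre. The part of these shifts in the Mediator values was not tested. In bulk samples fewer cells of a type and less RNA per cell cannot be told apart.

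Most Mediator transcripts did not pass the test, and 9 of the 11 that did changed by less than 2-fold. Every one of the 33 genes passed the filter on low values (at least 10 in at least 4 libraries), and 6 rose and 5 fell at an adjusted p under 0.05 (limma on log2(value + 1), Benjamini-Hochberg over all 11675 genes tested). That is 33.3% of the members, where 46.6% of all genes tested were called, 22.9% higher and 23.8% lower. The median of the absolute log2 fold changes was 0.22 for the members and 0.31 for all genes tested, and the median signed log2 fold change was 0.08 for the members and 0.01 for all genes. Only Cdk19 and Med14, 2 of 33 members and 2 of the 11 called, both passed the test and changed by 2-fold or more. Of all genes tested 10.9% did, which is 1271 of the 5444 called, so most called genes over the whole table also changed by less than 2-fold. The groups did not overlap for 7 members that were higher and 4 that were lower in DKO, against 21.2% and 21.7% of all genes (42.9% in either direction). Med27 (lower) and Med31 (higher) were among these 11 without passing the threshold, with adjusted p = 0.0597 and 0.0728 in limma. By module the calls were 0 higher and 3 lower of 7 in the kinase module, 3 and 1 of 7 in the head, 2 and 0 of the 4 interface genes, 1 and 0 of 9 in the middle, and 0 of 5 in the tail, while Med14 fell. Without the targeted Cdk8 and Cdk19, the kinase module had 0 higher and 1 lower of 5. The members without these genes had 6 higher and 3 lower of 31 (29.0% called). No test of a difference between modules was made. The count of falls was 3 without VavCre library 1, where 27.3% of members and 45.8% of all genes were called in either direction. The count of rises was 3 by limma over the 6 libraries without DKO 2 and 3, where 25.0% of members and 35.0% of all genes were called.

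**Figure D1:**
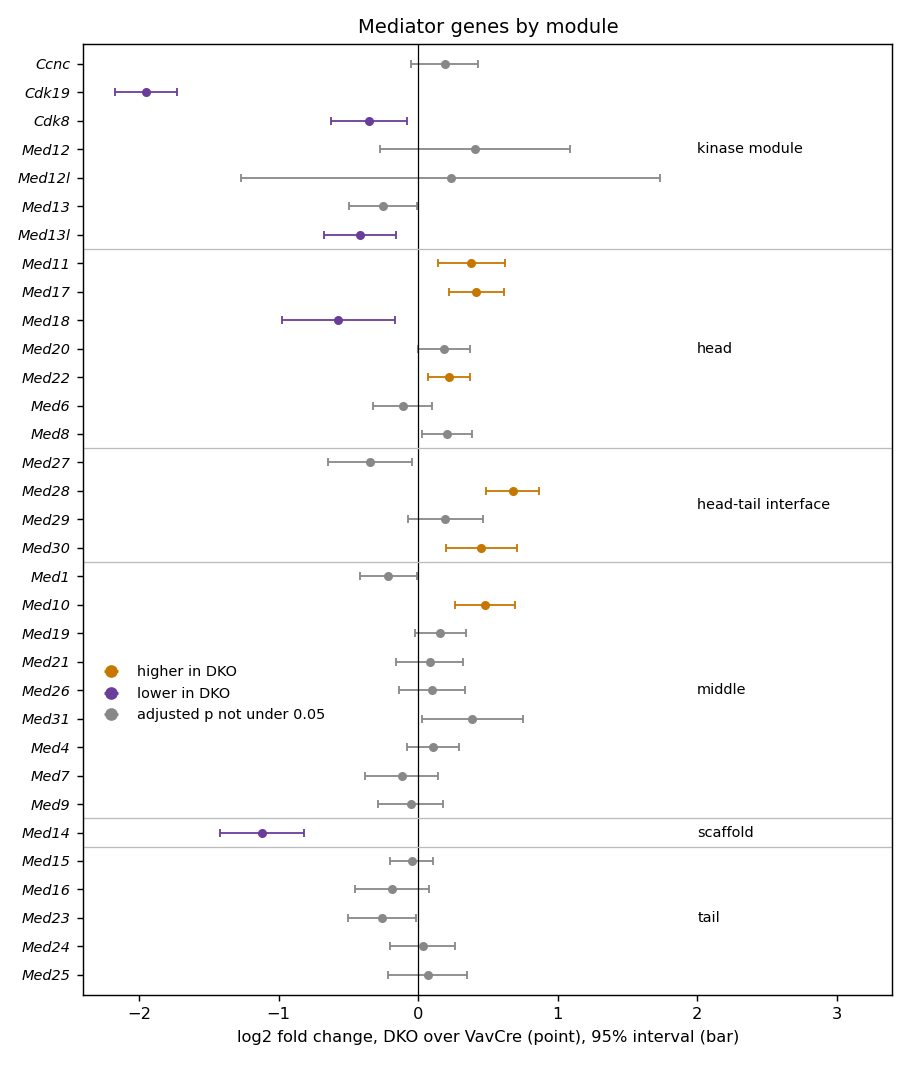
Log2 fold change of each of the 33 Mediator genes, DKO over VavCre, with its 95% limma interval (n = 4 libraries per group), ordered by module. Cdk19 at -1.95 and Med14 at -1.12 stand far to the left, the rises of 6 head, interface and middle genes end at 0.68 for Med28, and none of the 5 tail genes is coloured as called.

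The kinase module genes were led by the fall of Cdk19. Cdk19, the null allele's gene on chromosome 10 (40339564 to 40483818, plus strand, mm10), had 396, 392, 361 and 342 normalized counts in DKO libraries 1 to 4, against 1299, 1295, 1530 and 1682 in VavCre libraries 1 to 4. All 4 DKO libraries lay far below all controls, at 25.7% of the control mean (log2 fold change -1.95, SE 0.10, limma adjusted p = 2.95e-08). Cdk8, the floxed gene on chromosome 5 (146231230 to 146302874, plus strand, mm10), had 429, 309, 357 and 294 in DKO, against 466, 449, 408 and 432 in VavCre. DKO library 1 lay inside the control range, the other 3 below it, and 79.2% of the control mean remained (log2 fold change -0.35, SE 0.12, limma adjusted p = 0.0374, and exact two-sided permutation p = 0.0571). That call was lost under 14 of 20 alternatives, among them any 1 of DKO libraries 2, 3 and 4 or VavCre libraries 1, 2 and 4 left out (adjusted p = 0.0551 to 0.104). Gene totals include exons outside a floxed part, so the Cdk8 value does not check the deletion. Cdk8 also has a processed pseudogene copy, Gm7107, 98.3% identical over 717 bases, but its mean value was only 1.37.

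Ccnc, the gene of the cyclin that partners both kinases, did not pass the test. It had 678, 783, 567 and 685 normalized counts in DKO, against 639, 588, 629 and 516 in VavCre. The ranges overlap, and the log2 fold change of 0.19 has a 95% interval of -0.05 to 0.43 (limma adjusted p = 0.185). Set per kilobase of summed exon length, Cdk8 plus Cdk19 together stood at 99.1 ± 9.42 in DKO and 293 ± 30.6 in VavCre (SD, n = 4 each), and Ccnc at 133 ± 17.2 in DKO and 116 ± 10.9 in VavCre. The kinase to cyclin ratio of these values was 0.841, 0.643, 0.885 and 0.66 in DKO libraries 1 to 4, against 2.16, 2.33, 2.47 and 3.29 in VavCre. The groups did not overlap, but both targeted genes are in the numerator, and the level of the ratio depends on the annotated exon lengths. The share of Cdk19 in the kinase pair was 64.5% ± 3.25 in DKO and 84.6% ± 2.24 in VavCre on the same scale. These are transcript values, and protein was not measured.

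Med12 encodes the subunit that switches the kinase on, and its transcript was the least steady of the abundant members. It had 814, 486, 1069 and 1404 normalized counts in DKO, against 703, 918, 526 and 561 in VavCre. The coefficient of variation was 41.2% in DKO and 26.3% in VavCre, where the median member had 8.14% and 11.9%, and the median of all genes tested was 10.3% and 11.5%. DKO library 2 was below every control and DKO libraries 3 and 4 above every control. The log2 fold change of 0.41 has a 95% interval of -0.27 to 1.09 (limma adjusted p = 0.299). Without DKO library 2 it was 0.69 with adjusted p = 0.0299, so the call on Med12 turns on 1 library. Med12l, its paralog, was near the lower limit of detection, at 2.91, 8.04, 34.0 and 15.6 in DKO, against 3.93, 12.6, 7.77 and 17.4 in VavCre, and passed the filter in exactly 4 of 8 libraries (limma adjusted p = 0.808). It made up 0.938% ± 0.705 of the Med12 and Med12l total per kilobase in DKO and 0.968% ± 0.626 in VavCre.

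Med13 and Med13l encode the alternative subunits that tether the kinase module to the core. Med13l fell, with 762, 858, 716 and 671 in DKO, against 877, 878, 1068 and 1218 in VavCre (log2 fold change -0.42, SE 0.12, limma adjusted p = 0.0132). Every DKO library lay below every control, but the call was lost when DKO libraries 1 and 2 were averaged and 3 and 4 were averaged (adjusted p = 0.0548). Med13 had 1252, 1438, 1223 and 1219 in DKO, against 1357, 1315, 1589 and 1891 in VavCre. DKO library 2 lay inside the control range, and the log2 fold change was -0.25, with a 95% interval of -0.49 to -0.01 (limma adjusted p = 0.0869). Without VavCre library 2 the fall of Med13 passed the test (adjusted p = 0.0415). VavCre library 4 was the highest control for Cdk19, Med13 and Med13l alike.

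**Figure D2:**
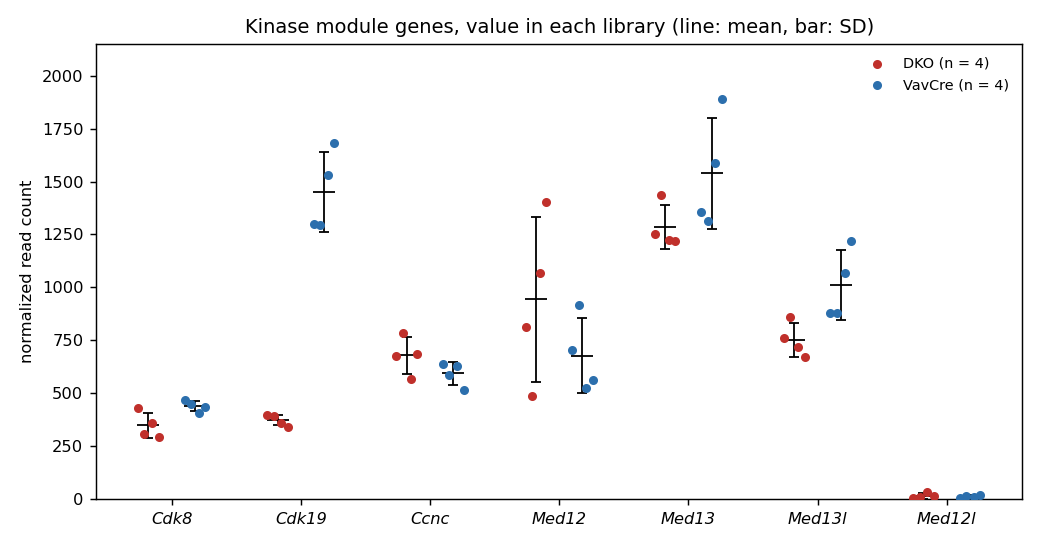
Normalized read counts of the 7 kinase module genes in each of 4 DKO and 4 VavCre libraries, with the mean (line) and SD (bar). Cdk19 separates the groups by the widest gap, Cdk8 and Ccnc overlap, Med12 ranges from 486 to 1404 within DKO, and Med12l lies near the axis.

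The balance within paralog pairs was compared for the 3 pairs of the kinase module, as the log2(value + 1) of one gene minus the other in each library. Cdk19 minus Cdk8 was -0.12, 0.34, 0.02 and 0.22 in DKO, against 1.48, 1.53, 1.90 and 1.96 in VavCre. The mean difference was 0.12 ± 0.20 in DKO and 1.72 ± 0.25 in VavCre (SD, n = 4 each), a shift of -1.60 (exact two-sided permutation p = 0.0286, the lower limit of a test with 4 libraries a group, and 0.0429 adjusted over the 3 pairs). Med13l minus Med13 was -0.72, -0.74, -0.77 and -0.86 in DKO, against -0.63, -0.58, -0.57 and -0.63 in VavCre. This balance was steadier than either gene alone, at -0.77 ± 0.06 in DKO and -0.61 ± 0.03 in VavCre (SD, n = 4 each), and the groups did not overlap (shift -0.17, exact permutation p = 0.0286, and 0.0429 adjusted over the 3 pairs). The 3 pairs include that of the targeted Cdk19 and Cdk8, whose equal p enters this adjustment. An adjustment without that pair was not run. Per kilobase, Med13l made up 29.1% ± 0.886 of the Med13 pair in DKO and 31.6% ± 0.473 in VavCre. Med12l minus Med12 was -6.20 ± 1.17 in DKO and -6.02 ± 0.91 in VavCre (exact permutation p = 0.800, also 0.800 adjusted), a pair in which low Med12l counts set the spread. Its shift of -0.18 turned to 0.32 without DKO library 1 and to 0.18 without VavCre library 4.

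**Figure D3:**
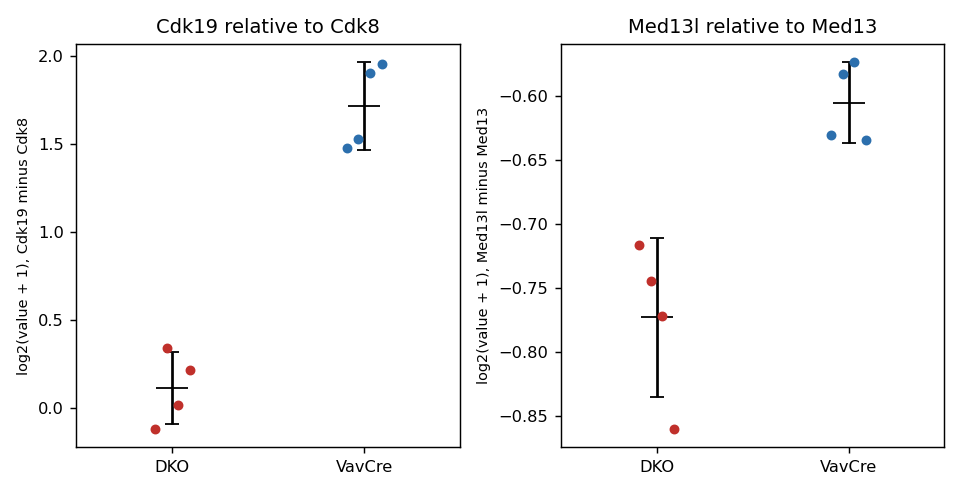
Difference in log2(value + 1) between paralogs in each of 4 DKO and 4 VavCre libraries, with the mean (line) and SD (bar). Left, Cdk19 minus Cdk8 averages 0.12 in DKO and 1.72 in VavCre. Right, Med13l minus Med13 averages -0.77 in DKO and -0.61 in VavCre, without overlap.

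Med14, the scaffold that joins head, middle and tail, showed the largest change of the 31 genes that were not targeted. It had 429, 358, 334 and 433 normalized counts in DKO, against 759, 782, 758 and 1098 in VavCre. All DKO libraries lay below all controls, and VavCre library 4 stood above the other 3 controls. The DKO mean was 45.7% of the control mean (log2 fold change -1.12, SE 0.14, limma adjusted p = 4.28e-05), and without VavCre library 4 the log2 fold change was -0.99 (adjusted p = 3.04e-05). The call held under all 20 alternatives. Med14 lies on the minus strand of the X chromosome (12675369 to 12762073, mm10). Its promoter is shown because Med14 is the member with the largest fall that the mice were not made to lack (RefSeq, GRCm38.p6, chrX:12761924-12762223, minus strand, 5′ to 3′), with matches to CCGGAAG (an ETS-type sequence, 1 match) and GGGCGG (a GC box, 3 matches) in capitals on either strand.
Med14: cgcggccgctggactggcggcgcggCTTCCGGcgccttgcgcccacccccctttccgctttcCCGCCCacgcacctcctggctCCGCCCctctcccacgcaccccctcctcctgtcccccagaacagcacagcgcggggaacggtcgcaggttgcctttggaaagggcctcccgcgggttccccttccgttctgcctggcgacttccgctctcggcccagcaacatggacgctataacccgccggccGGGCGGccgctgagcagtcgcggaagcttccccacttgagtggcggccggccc

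Med28 showed the largest rise of the 33 genes. Known from metazoans, MED28 lies where head and tail meet. Its gene, on the plus strand of chromosome 5 (45520229 to 45529276, mm10), had 1546, 1501, 1866 and 1836 normalized counts in DKO, against 1094, 1056, 1075 and 970 in VavCre. All DKO libraries were above all controls, and DKO libraries 3 and 4 were above 1 and 2 (log2 fold change 0.68, SE 0.09, limma adjusted p = 5.92e-05). The call held under all 20 alternatives. The Med28 promoter is given as the counterpart of the Med14 one (RefSeq, GRCm38.p6, chr5:45519979-45520278, plus strand, 5′ to 3′), with its single matches to CACGTG (an E-box) and to CCAAT, which is read on the opposite strand as ATTGG, in capitals.
Med28: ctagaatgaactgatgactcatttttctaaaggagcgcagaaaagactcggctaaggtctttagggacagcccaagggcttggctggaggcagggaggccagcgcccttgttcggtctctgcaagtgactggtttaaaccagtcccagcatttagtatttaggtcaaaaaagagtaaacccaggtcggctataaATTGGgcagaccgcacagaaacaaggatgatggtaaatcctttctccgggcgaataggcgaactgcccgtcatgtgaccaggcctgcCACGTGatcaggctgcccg

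The promoters of Med14 and Med28 shared none of these 4 sequences. RefSeq promoters of 300 bases, 250 before and 50 after the start, were matched for 28 of the 33 members. CCGGAAG was present in 7 of 28 member promoters (25.0%) and in 9.08% of 27025 promoters, and GGGCGG in 18 (64.3%) and 35.6%. CACGTG was present in 4 (14.3%) and 7.09%, and CCAAT in 11 (39.3%) and 37.8%. TATAAA, which overlaps the CCAAT match of Med28 by a base, was found in 3 (10.7%) and 14.1%. The 7 members with CCGGAAG were Med14 and Med18, which fell, Med17, which rose, and Med4, Med6, Med15 and Med19, which did not pass the test. A match is a description of letters in the window and not a bound site.

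The remaining interface genes moved less. Med30 rose, with 498, 532, 535 and 544 in DKO, against 458, 311, 403 and 380 in VavCre (log2 fold change 0.45, SE 0.12, limma adjusted p = 0.00754). Its groups did not overlap, although the call was lost over the 6 libraries without DKO 2 and 3 (limma adjusted p = 0.0604) and when a trend on exon length was removed (0.109). Med27 averaged 163 ± 16.4 in DKO and 207 ± 24.8 in VavCre (adjusted p = 0.0597 in limma, and 0.0408 without VavCre library 4). Med29 averaged 347 ± 7.03 in DKO and 306 ± 49.95 in VavCre (limma adjusted p = 0.214).

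In the head, which contacts the polymerase, 3 genes rose, 1 fell and 3 did not pass the test. The 3 that rose encode MED17, MED11 and MED22, which are bundled together in the head. Med17 had 1016, 955, 894 and 977 in DKO, against 809, 751, 700 and 630 in VavCre, with no overlap (log2 fold change 0.41, SE 0.09, limma adjusted p = 0.00276), and held under all 20 alternatives. Med11 had 538, 574, 681 and 697 in DKO, against 465, 518, 499 and 423 in VavCre. Its log2 fold change was 0.38 (SE 0.11, limma adjusted p = 0.0142), and its call was lost without DKO libraries 2 and 3 (0.0750) and with the length trend removed (0.159). Med22 had 1194, 1150, 1254 and 1234 in DKO, against 1054, 1054, 957 and 1081 in VavCre, again with no overlap. The rise was small (log2 fold change 0.22, SE 0.07, limma adjusted p = 0.0212), and the call was lost under 8 of 20 alternatives, including DKO library 3, DKO library 4 or VavCre library 3 left out (adjusted p = 0.0575, 0.0527 and 0.0733).

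MED18 and MED20 form a movable pair at the edge of the head that MED8 anchors, and only the gene of MED18 passed the test. Med18 fell, with 90.3, 139, 122 and 135 in DKO, against 186, 136, 191 and 211 in VavCre. VavCre library 2 lay inside the DKO range (log2 fold change -0.57, SE 0.19, limma adjusted p = 0.0252), and leaving out DKO library 1 or VavCre library 1, 3 or 4 gave adjusted p = 0.0514 to 0.0688. Med20 averaged 600 ± 26.6 in DKO and 528 ± 36.7 in VavCre (limma adjusted p = 0.0982), and Med8 1051 ± 79.4 in DKO and 909 ± 59.3 in VavCre (limma adjusted p = 0.0555, and 0.0273 without DKO library 4). Med6, which encodes a subunit that bridges head and middle, averaged 368 ± 31.3 in DKO and 397 ± 13.9 in VavCre (limma adjusted p = 0.370).

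**Figure D4:**
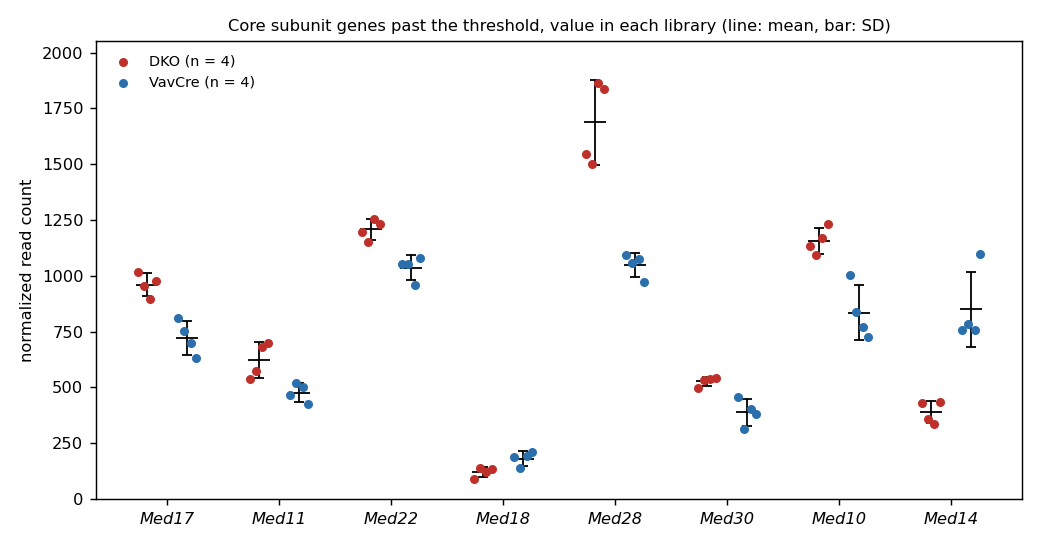
Normalized read counts of the 8 core subunit genes past the threshold, in each of 4 DKO and 4 VavCre libraries, with the mean (line) and SD (bar). Med28 and Med14 show the widest separation, in opposite directions, and Med18 is the only one of the 8 whose groups overlap.

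In the middle, the part that meets the kinase module, only Med10 passed the test. Med10 rose, with 1135, 1092, 1168 and 1230 in DKO, against 1004, 836, 771 and 726 in VavCre. No DKO library was as low as a control (log2 fold change 0.48, SE 0.10, limma adjusted p = 0.00208), and the call held under all 20 alternatives. A long noncoding RNA on the opposite strand, Gm26819, shares 92.8% of the Med10 exon bases, and without a stated use of strand its reads cannot be told apart from those of Med10. Med1, whose product is the contact for nuclear receptors, had 771, 1017, 1002 and 877 in DKO, against 1108, 1046, 1013 and 1061 in VavCre. DKO library 2 alone reached the control range (log2 fold change -0.21, limma adjusted p = 0.0829), and without it the fall passed the test (adjusted p = 0.0489). The others that did not pass were Med4, Med7, Med9, Med19, Med21, Med26 and Med31. Med31 averaged 135 ± 12.9 in DKO and 103 ± 15.9 in VavCre, and Med26, whose product recruits elongation factors, 250 ± 10.2 in DKO and 233 ± 16.7 in VavCre. Med7 and Med21, whose products form the hinge of the middle, had log2 fold changes of -0.12 (95% interval -0.38 to 0.14) and 0.08 (-0.16 to 0.32). Those of Med4, Med9 and Med19 were 0.10, -0.05 and 0.16.

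None of the 5 tail genes passed the test. Their 95% intervals take all libraries as independent, which may not hold in either group. The tail is the main landing surface for activators. Med15, whose product binds SREBP factors, had 2292, 2147, 2142 and 1993 in DKO, against 1992, 2330, 2244 and 2291 in VavCre. The groups overlapped, and the log2 fold change of -0.05 has a 95% interval of -0.20 to 0.11 (limma adjusted p = 0.625). Med24 had an interval of -0.20 to 0.26, and Med25, whose product binds ATF6, of -0.21 to 0.35. Med23, a contact of ELK1, averaged 602 ± 83.8 in DKO and 716 ± 64.2 in VavCre (log2 fold change -0.26, 95% interval -0.50 to -0.01, limma adjusted p = 0.0787), and without DKO library 1 the fall passed the test (adjusted p = 0.0322). Med16 averaged 599 ± 66.8 in DKO and 686 ± 101 in VavCre (log2 fold change -0.19, 95% interval -0.45 to 0.08, limma adjusted p = 0.224).

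Levels could be compared between genes per kilobase of summed exon length, a scale that depends on which transcripts are annotated. The members spanned a wide range, with Med11 the highest in both groups (595 ± 75.1 in DKO and 455 ± 39.9 in VavCre, normalized counts per kilobase) and Med12l the lowest (1.19 ± 1.07 in DKO and 0.815 ± 0.457 in VavCre). Next to Med11 in DKO stood Med30 at 445 ± 16.9 and Med19 at 411 ± 24.4. In VavCre the same places were held by Med19 at 369 ± 28.7 and Med30 at 327 ± 51.2, which differed by less than their spread. Cdk19 ranked 27 of 33 in DKO and 8 of 33 in VavCre, and Med14 31 of 33 in DKO and 23 of 33 in VavCre. Cdk8 ranked 32 of 33 in both. The ratio of Med14 to Med17 on this scale was 0.195 ± 0.0168 in DKO and 0.580 ± 0.177 in VavCre (SD, n = 4 each).

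The summed transcript of the complex depended on the scale. The 33 genes together held 22666 ± 514 normalized counts in DKO and 22900 ± 355 in VavCre, a difference within the spread between libraries. Per kilobase the sum was 5890 ± 166 in DKO (5743 to 6042) and 5532 ± 99.0 in VavCre (5386 to 5598), higher in DKO with no overlap. The 26 core genes held 18274 ± 420 in DKO and 17181 ± 208 in VavCre, and the 7 kinase module genes 4392 ± 162 in DKO and 5719 ± 436 in VavCre. Per kilobase, the kinase module made up 8.87% ± 0.373 of the total in DKO and 12.8% ± 0.956 in VavCre, and the interface genes 18.7% ± 0.295 in DKO and 15.1% ± 0.806 in VavCre. The head made up 32.3% ± 0.346 in DKO and 29.9% ± 0.431 in VavCre, the middle 29.0% ± 0.589 in DKO and 28.9% ± 1.24 in VavCre, and the tail 10.3% ± 0.361 in DKO and 11.6% ± 1.12 in VavCre. Med14 made up 0.753% ± 0.102 in DKO and 1.76% ± 0.381 in VavCre. The kinase module figures include the targeted Cdk8 and Cdk19, together 99.1 in DKO and 293 in VavCre per kilobase. Of its other genes, Ccnc stood at 133 in DKO and 116 in VavCre. The Med12 and Med12l pair stood at 124 ± 51.0 in DKO and 88.7 ± 23.1 in VavCre. The Med13 and Med13l pair stood at 167 ± 14.6 in DKO and 207 ± 35.0 in VavCre. Shares without the targeted genes were not computed. The DKO and VavCre shares overlapped for the middle and the tail only. For the other 4 groups of genes they did not overlap. Shares add up to a whole and so do not vary independently.

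Members that rose had shorter summed exon lengths, in the median, than members that fell. This length covers the exons of all annotated transcripts of a gene, and the length of the transcripts in these cells was not measured. The 6 that rose had summed exon lengths of 1.05 to 5.01 kilobases (median 3.92). The 5 that fell, the targeted Cdk8 and Cdk19 among them, had 2.00 to 15.4 kilobases (median 8.76). Across the 33 genes the log2 fold change and exon length had a Spearman correlation of -0.31, and across 11664 genes tested it was -0.16, where all points come from the same 8 libraries. Length also separated libraries of 1 group: over the 33 genes its correlation with VavCre library 4 minus VavCre library 1 was 0.48, and 0.38 over the 11664. VavCre library 4 was the lowest control for 4 of the 6 genes that rose and the highest control for 4 of the 5 that fell, and DKO libraries 3 and 4 were both above 1 and 2 for 5 of the 6 that rose. With a trend on exon length removed in each library, an alternative chosen after seeing these values, 5 members were higher and 5 lower. That is 30.3% of the members, where 47.2% of all genes tested were called. The calls on Cdk8, Med11 and Med30 were lost (limma adjusted p = 0.125, 0.159 and 0.109), while Med20 (log2 fold change 0.26, adjusted p = 0.0284) and Med27 (-0.38, adjusted p = 0.0372) passed the test. Cdk19, Med14, Med28, Med17 and Med10 kept their calls, with log2 fold changes of -1.91, -1.03, 0.69, 0.41 and 0.48.

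**Figure D5:**
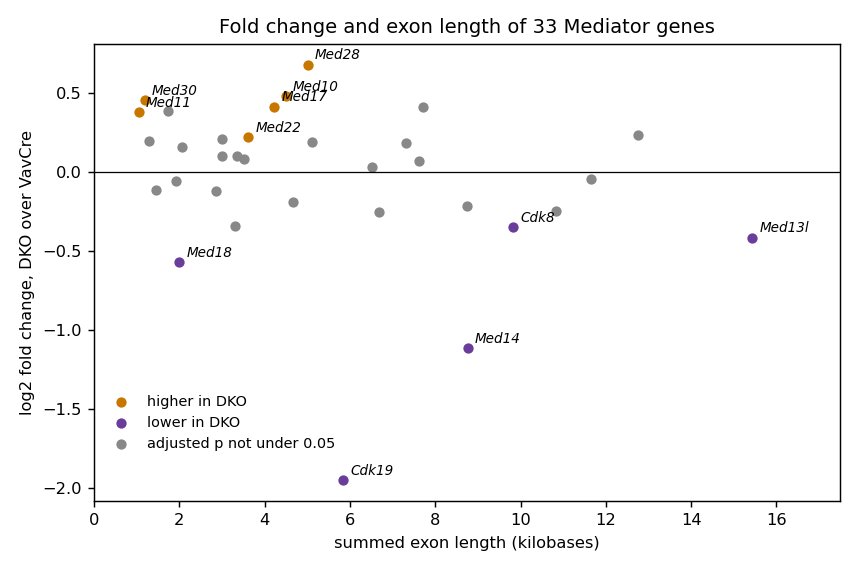
Log2 fold change (DKO over VavCre) of the 33 Mediator genes against summed exon length in kilobases, with the 11 genes past the threshold named. The 6 genes that rose lie at or below 5.01 kilobases, and of the 5 that fell Med18 at 2.00 kilobases is the shortest.

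Genes that work with Mediator were set beside its own, from 6 lists, whose counts are to be read against the 22.9% of all genes tested that rose and the 23.8% that fell. Of the 12 subunits of RNA polymerase II, 4 rose and 2 fell (median log2 fold change 0.08). Polr2i rose to 496 ± 63.3 in DKO, against 311 ± 35.4 in VavCre (limma adjusted p = 0.000835), and Polr2g to 1232 ± 98.1 in DKO, against 931 ± 49.3 in VavCre (limma adjusted p = 0.00134). Of 12 other transcription kinases and their cyclins, 2 rose and 2 fell (median -0.01). Cdk9, the kinase of elongation factor P-TEFb, rose to 2627 ± 170 in DKO, against 2042 ± 178 in VavCre (limma adjusted p = 0.0021), and Ccnl1, cyclin L1, fell to 601 ± 57.7 in DKO, against 931 ± 155 in VavCre (limma adjusted p = 0.00118). Among 8 tested elongation factors linked to Mediator, 1 rose and none fell (median -0.03). That gene was Ice1, at 669 ± 80.7 in DKO and 525 ± 50.7 in VavCre (limma adjusted p = 0.0234), and the next by p, Ell2, averaged 8715 ± 79.5 in DKO and 9214 ± 356 in VavCre (limma adjusted p = 0.235).

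Of 9 transcription factors known as substrates of the Mediator kinases, none rose and 5 fell (median log2 fold change -0.21), where 22.9% and 23.8% of all genes tested did and the median of all genes was 0.01. E2f1, a driver of S phase, fell to 866 ± 53.8 in DKO, against 1622 ± 103 in VavCre (limma adjusted p = 1.68e-06), beside the fall of all 12 cell division genes. Stat5a fell to 307 ± 14.3 in DKO, against 406 ± 23.3 in VavCre (limma adjusted p = 0.00476). Of 17 tested factors that bind a Mediator subunit, 5 rose and 5 fell (median -0.02). Rxra, the shared partner of nuclear receptors that use MED1, rose to 3205 ± 170 in DKO, against 1700 ± 98.7 in VavCre (limma adjusted p = 4.57e-07), and Trp53 fell to 1237 ± 31.9 in DKO, against 2189 ± 128 in VavCre (limma adjusted p = 9.65e-07). Cohesin, which joins Mediator at enhancer loops, and its loader had 5 of 7 genes lower and none higher (median -0.60). Smc1a fell to 1170 ± 129 in DKO, against 2357 ± 278 in VavCre (limma adjusted p = 8.85e-06), and Rad21 to 3067 ± 128 in DKO, against 4663 ± 293 in VavCre (limma adjusted p = 1.05e-05). Cohesin genes are also used in cell division, whose 12 genes were lower in the same libraries, and their part in these falls was not tested.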

How the data were processed

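Macrophage RNA was selected for poly(A), made into Kapa libraries and sequenced as pairs of 150 bases, per the labels' protocols. The submitters' processing notes name mm10, Salmon 1.4.0 for quantification and DESeq2 for normalization, while annotation, filters and strand use are not stated there. The deposited values are a signal, namely counts per gene that the authors divided by 1 size factor per library. Undoing this gave whole reads for 100% of the values (tolerance 0.01) in 6 libraries, which held 17856700 to 21353200 reads. A step was also found in DKO libraries 2 and 3, but it lay so near 1 that the recovery rule applied here did not accept it, and count models were run over 6 libraries instead of the planned 8.

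Titles gave each library's genotype. The 11675 genes reaching 10 in 4 or more libraries were tested with limma 3.58.1 (R 4.3.3, two-sided, with a genotype term alone and the robust and trend options) on log2(value + 1), a scale that understates changes of low genes. Benjamini-Hochberg adjustment ran over all of them, with a threshold of 0.05. Single values were compared by exact permutation over 70 regroupings. Alternatives were pseudocounts of 0.5 and 5, no filter, a filter of 50, limma without its options, quantile normalization, a replicate block, each library left out, DKO pairs averaged, and, chosen after seeing the data, a length trend removed and limma, edgeR 4.0.16 and DESeq2 1.42.0 over 6 libraries. The pipeline was tested on simulated data.

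All 33 members matched a GENCODE annotation of mm10, which gave exon lengths and overlaps. Copies were searched with blastn 2.17.0 (95% identity over 150 bases). Promoters were searched on both strands for 10 sequences. Besides the 5 given above, TTTGGCGC, TTTCGCGC and the NRF1 and YY1 motifs were in none of the 28 member promoters (0.533%, 0.329%, 0.962% and 0.91% of all promoters), and TGACGTCA was in that of Med21 (3.57% of members, 1.78% of all). All members are named, with values in every library for the kinase module and for genes past the threshold, and of each of the 6 partner lists the 2 genes with the smallest adjusted p are named. Members and lists were chosen with earlier results of these data known. The other cell lists gave 1 of 1 tested lower (B cell), 0 of 1 (T and NK cell), 1 of 1 higher (erythroid and megakaryocyte), 1 of 2 higher (dendritic cell), none tested (mast cell and basophil), 1 higher and 1 lower of 2 (progenitor) and 1 of 2 lower (stroma).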

Additional observations from a re-analysis of the deposited data

Results flagged for a closer look

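Of the 66 combinations of a gene and a genotype group, 2 held a library far from the other 3 of its group, where chance alone flags about 1 in 20. Med14 had 1098 normalized counts in VavCre library 4, against 758 to 782 in the other controls, and its fall held without that library. Med13 had 1438 normalized counts in DKO library 2, against 1219 to 1252 in the other double knockouts.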

How the results depend on the processing

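Across all 20 alternatives Cdk19, Med14, Med28, Med17 and Med10 kept their direction and their calls, and the number of genes called over the whole table stayed within 1.5 times its value. Leaving out 1 library gave 2244 to 2614 genes higher and 2353 to 2681 lower, 5 to 7 members higher and 3 to 5 lower, with 3 lower without VavCre library 1. Members higher numbered 3 over the 6 libraries without DKO 2 and 3, by limma and by edgeR (4 by DESeq2), and members lower numbered 3 under quantile normalization and with DKO pairs averaged. In these settings 21.9% to 36.4% of members were called in either direction, against 34.7% to 47.5% of all genes tested. Fewer libraries or averaged values entered some of those fits, and the cause of the lower counts was not tested for any of them. With no filter on low values, 30.3% of members and 29.8% of the 17618 genes then tested were called, so the lower share of members depended on the filter. The planned count models over all 8 libraries were not run.

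Same-numbered libraries did not deviate together (correlations of -0.05 to 0.03), and the labels state no pairing. With 4 libraries per group these correlations cannot exclude that same-numbered libraries were prepared together. With the replicate block limma called 5 members higher and 4 lower, losing Cdk8 and Med22, and 2215 genes higher and 2434 lower. A sign-flip test over 4 pairs cannot go below 0.125, the p it gave for Cdk19 (-1.95), Cdk19 minus Cdk8 (-1.60) and Med13l minus Med13 (-0.17). Left-out libraries gave Cdk8 -0.46 to -0.28 (exact permutation p = 0.0286 without DKO library 1, at -0.46), Cdk19 -2.004 to -1.88, Cdk19 minus Cdk8 -1.68 to -1.52, Med13l minus Med13 -0.19 to -0.14 and Med12l minus Med12 -0.60 to 0.32.

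Without division by length the share differences, DKO minus VavCre, were -5.58 percentage points for the kinase module (the targeted Cdk8 and Cdk19 included), 3.19 for the head, 1.60 for the middle, -1.99 for the scaffold and -0.71 for the tail, against -3.88, 2.44, 0.18, -1.004 and -1.29 per kilobase. Counting the interface genes with the head gave 5 higher and 1 lower of 11 (54.5% called). Of all genes tested, 22.9% were higher and 23.8% lower (46.6% called). Signs changed for 5 genes that did not pass the test: Med24 (-0.0063 by edgeR, -0.039 to 0.098 over the left-out libraries), Med15 (0.067 with the length trend removed), Med9 (0.0086 under quantile normalization, -0.12 to 0.032 over left-out libraries), Med25 (-0.000599 without DKO 4, to 0.22 without DKO 2, where adjusted p = 0.0504 in limma) and Med12l (-0.12 without VavCre 1, to 0.77 without DKO 1). Low counts limit Med12l, which fell below the filter in some left-out fits.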

Other observations

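DKO library 2 was the lowest double knockout for both Med12 and Med25, at 486 and 527 normalized counts. The other double knockouts had 814 to 1404 for Med12 and 777 to 830 for Med25, while the controls of Med25 stayed between 668 and 699. The coefficient of variation of Med25 was 18.9% in DKO and 2.08% in VavCre.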
